A study of Oryza sativa with 4 samples.

Results

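The miR159 and miR319 families were followed in small RNA of a salt-tolerant rice, Oryza sativa cv. Pokkali. Members were all entries of the 4 deposited miRNA lists whose miRBase ID was of either family (mir159 or mir319 in the files), and these came to 11 of 1292 entries, 6 for miR159 and 5 for miR319. The 11 entries held 3 distinct mature sequences of 783 and 4 genomic loci of 884. A further 2 entries without a miRBase name lay on a hairpin of one of these loci and are described with them as a length variant.

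Seedlings were raised hydroponically, and at 9 days one set received 1.5% NaCl through the root for 9 h while the other set received none. Root, the submerged part, and shoot, the aerial part, were then taken from both sets. The 4 libraries are called control root (CR), treated root (TR), control shoot (CS) and treated shoot (TS). Each condition had 1 library, so no difference below has a replicate check, no p-value is given, and all intervals cover counting error only. The number of plants behind a library is not given in the sources used here, and the lists hold small RNAs alone, so the tissue labels were not checked against marker transcripts.

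miR159 and miR319 are old relatives among plant miRNAs and share most of their bases. miR159 guides the cleavage of mRNAs for GAMYB-like MYB transcription factors, which act in the gibberellin response, in seed germination and in anther development. miR319 guides the cleavage of mRNAs for class II TCP transcription factors, which limit cell proliferation in growing leaves. In Arabidopsis both come from unusually long foldback precursors that are cut from the loop towards the base, and in creeping bentgrass plants carrying extra copies of a rice miR319 gene tolerated salt and drought better than their controls.

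The mature sequences are shown because the families are told apart by few bases and because 1 extra base separates the named from the unnamed miR319 sequence. Each is written 5′ to 3′ in DNA letters, as deposited, with the seed, bases 2 to 8, in capitals.
miR159 21-nt: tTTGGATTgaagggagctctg
miR159 20-nt: cTTGGATTgaagggagctct
miR319 21-nt: tTGGACTGaagggtgctccct
unnamed 22-nt: cTTGGACTgaagggtgctccct

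Both miR159 sequences had the same seed, and over 20 aligned bases they matched at 19. The difference was C1T, counted from 1 at the 5′ end of the 20-nt sequence, and the 21-nt sequence ran 1 base further at its 3′ end. miR319 started 1 base later in the alignment. It matched miR159 21-nt at 16 of 20 aligned bases, with T7C, A15T, T20C and G21C counted along miR159 21-nt, so that only T7C fell inside the miR159 seed. The unnamed 22-nt sequence contained the whole of miR319 21-nt (21 of 21 bases) and added 1 base at the 5′ end. That base brought its first base into line with the first base of miR159, and against miR159 21-nt it matched at 16 of 21 positions. Among the 783 sequences of the lists the miR159 seed occurred in 3, the miR319 seed in 2 and the seed of the 22-nt sequence in 1.

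The third sequence with the miR159 seed was an unnamed 20-nt sequence, singled out here after its values were seen. It was listed in CR alone with 4 reads (0.581 RPM, reads per 1000000 reads used), at chr1:9760719-9760738 on the minus strand, in a hairpin of 209 nt without a recorded miRNA*. It matched miR159 21-nt at 18 of 20 bases, with T1A and T20C counted along miR159 21-nt. Against miR319 21-nt it matched at 17 of 19 aligned bases, so it had 2 mismatches to either, and it had 3 genomic matches. It carried no family name and its hairpin overlapped no member locus, so it was not counted with the families.

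All 4 loci lay on chromosome 1 of the IRGSP-1.0 assembly, and all carried the mature sequence on the 3′ arm. The hairpins are shown because they place the mature sequence and, where one was recorded, the miRNA*, the partner strand cut from the opposite arm. Both are in capitals, the miRNA* first, in the longest form listed for the locus.
miR159 hairpin, chr1:1215013-1215223, plus strand: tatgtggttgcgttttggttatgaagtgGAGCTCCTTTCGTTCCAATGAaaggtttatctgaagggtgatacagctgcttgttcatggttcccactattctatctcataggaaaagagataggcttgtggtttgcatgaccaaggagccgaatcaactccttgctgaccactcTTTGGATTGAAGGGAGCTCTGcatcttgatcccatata
miR159 hairpin, chr1:6693100-6693306, plus strand: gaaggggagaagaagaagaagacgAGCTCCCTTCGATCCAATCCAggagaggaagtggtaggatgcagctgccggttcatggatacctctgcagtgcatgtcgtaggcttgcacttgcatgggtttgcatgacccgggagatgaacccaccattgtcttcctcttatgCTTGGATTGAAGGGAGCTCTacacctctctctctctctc
miR319 hairpin, chr1:6677562-6677774, minus strand: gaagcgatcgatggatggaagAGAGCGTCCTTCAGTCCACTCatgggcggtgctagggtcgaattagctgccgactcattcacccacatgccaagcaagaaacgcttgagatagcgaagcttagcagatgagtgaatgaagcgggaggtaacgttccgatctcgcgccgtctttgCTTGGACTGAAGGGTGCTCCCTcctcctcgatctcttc
miR319 hairpin, chr1:26823285-26823470, minus strand: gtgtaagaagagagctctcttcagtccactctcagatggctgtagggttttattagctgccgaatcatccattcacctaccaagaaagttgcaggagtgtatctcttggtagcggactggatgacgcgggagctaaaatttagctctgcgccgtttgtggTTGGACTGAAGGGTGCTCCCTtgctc

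The hairpin at 1215013 carried miR159 21-nt and that at 6693100 carried miR159 20-nt. The hairpins at 6677562 and 26823285 both contained miR319 21-nt, which had 2 genomic matches, and only the hairpin at 6677562 accounted for the single genomic match of the 22-nt sequence. A miR319 and a miR159 hairpin were neighbours: 15325 bases lay between the hairpin at 6677562 on the minus strand and that at 6693100 on the plus strand. miR159 21-nt also had 2 genomic matches, but only the hairpin at 1215013 was listed for it. Gene models of this assembly were not used here, so no annotation is given for what the hairpins overlap.

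The mature sequences were deposited at 1215187 to 1215207, 6693269 to 6693288, 6677579 to 6677599 (to 6677600 for the 22-nt sequence) and 26823291 to 26823311. These starts and ends were 1 base higher than the deposited hairpin coordinates imply, an offset found on both strands in all 1243 entries whose mature sequence could be placed in its hairpin.

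The hairpins were long and stable. Their lengths were 186, 207, 211 and 213 nt, with a median of 209 nt, against a median of 113 nt and a range of 63 to 206 nt at the 79 other loci with a miRBase name. Of those 79 loci, 5 had a hairpin longer than 186 nt, and these belonged to miR166, miR1427, miR5827 and miR164. Folding energies ran from -111.2 kcal/mol at the miR319 hairpin at 6677562 to -84.2 kcal/mol at the miR159 hairpin at 1215013, with a median of -102.56 against -60.4 kcal/mol for the other named loci. Longer hairpins have more bases to pair, and per 100 nt the medians were close, at -51.5 for the 4 member loci and -51.7 for the others. Within the families, the hairpin at 1215013 had the lowest G+C, 44.1%, and the weakest energy per 100 nt, -39.9, while the other hairpins had 50 to 54.5% G+C and -53.8 to -50.8 per 100 nt. Between 17 and 19 bases of the mature sequence were drawn as paired at each locus, and the p-value of the fold was 0.009901 at all 4 loci.

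**Figure D1:**
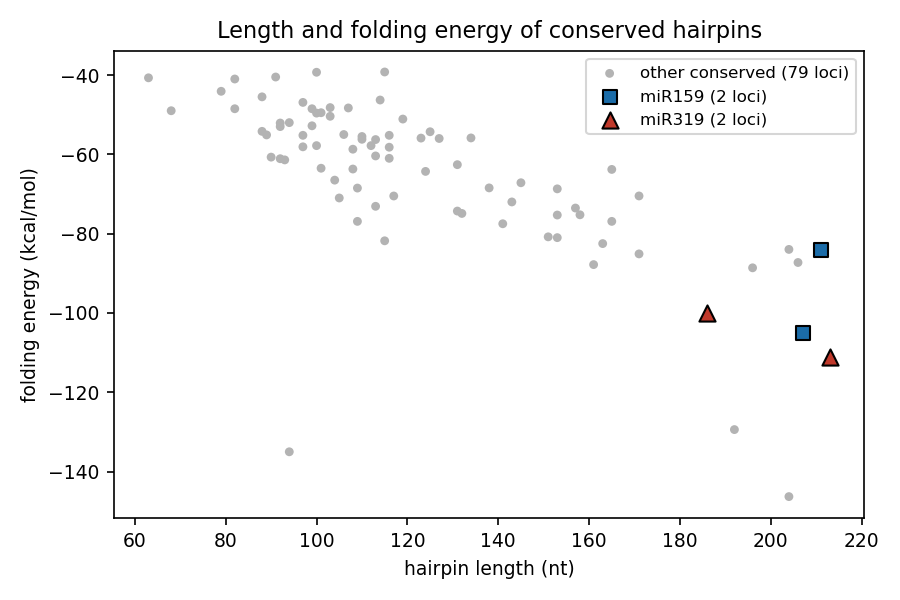
Each point is 1 locus with a miRBase name, by hairpin length in nt on the x axis and folding energy in kcal/mol on the y axis. The 2 miR159 loci (squares) and 2 miR319 loci (triangles) lie at 186 to 213 nt, where 5 of the 79 other loci (grey) also lie.

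The libraries differed in depth. Reads used by the authors for miRNA finding numbered 6887961 (CR), 12126876 (TR), 13116913 (CS) and 9765004 (TS). The listed mature sequences took between 30915 and 60792 reads, or 0.317 to 0.483% of the reads used. Since 1 read was worth between 0.0762 RPM in CS and 0.145 RPM in CR, a value of a few reads was coarse in every library.

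miR159 21-nt was the only miR159 sequence listed in all 4 libraries. Root gave 216 reads without NaCl and 226 with it, shoot 325 and 506, and in the same order the levels were 31.4, 18.6, 24.8 and 51.8 RPM. TS was the highest library and TR the lowest. The counting intervals of TS (47.4 to 56.5 RPM) and TR (16.3 to 21.2 RPM) met no other interval, while those of CR (27.3 to 35.8 RPM) and CS (22.2 to 27.6 RPM) overlapped each other narrowly. Among the distinct sequences of each list it ranked 7th of 122 and 9th of 224 in the root libraries, and 13th of 353 (CS) and 8th of 311 (TS) in shoot.

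miR159 20-nt was listed in root alone. It had 78 reads in CR and 90 in TR, or 11.3 RPM (8.95 to 14.1) and 7.42 RPM (5.97 to 9.12), and the intervals overlapped narrowly. Its hairpin at 6693100 was in neither shoot list. That a sequence is not listed is not a count of 0, since the lists hold predicted miRNAs with at least 2 reads and not all reads, so no fold was computed against shoot.

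miR319 21-nt was higher in both root libraries than in either shoot library. It had 268 reads in CR and 308 in TR but 16 in CS and 39 in TS, which were 38.9, 25.4, 1.22 and 3.99 RPM. No interval met another: in root they were 34.4 to 43.9 RPM without NaCl and 22.6 to 28.4 RPM with it, and in shoot 0.697 to 1.98 RPM and 2.84 to 5.46 RPM. In root it ranked 6th of 122 and 7th of 224 sequences, above miR159 21-nt in both libraries, and in shoot it ranked 45th of 353 and 32nd of 311.

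The unnamed 22-nt sequence was listed in shoot alone. It had 81 reads in CS and 73 in TS, or 6.18 RPM (4.90 to 7.68) and 7.48 RPM (5.86 to 9.40), and these intervals overlapped. In both shoot libraries it was above miR319 21-nt, by 5.06 times in reads in CS and by 1.87 times in TS.

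**Figure D2:**
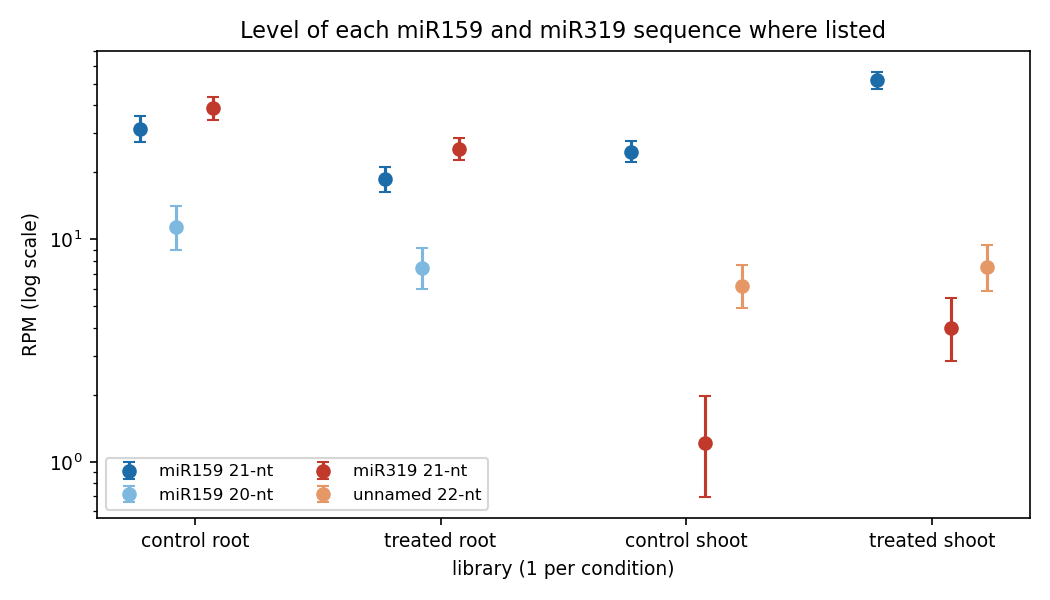
Points give the level of each sequence in RPM (log axis) in the libraries that list it, and bars give the 95% counting interval of the read count. miR319 21-nt stands at 38.9 and 25.4 RPM in root and at 1.22 and 3.99 RPM in shoot, where the unnamed 22-nt sequence stands at 6.18 and 7.48 RPM.

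The listing of the miR319 hairpin at 6677562 differed between tissues. Both root lists gave miR319 21-nt at this locus, and both shoot lists gave the unnamed 22-nt sequence in its place, with miR319 21-nt then listed at the hairpin at 26823285 only. TR was the only list with miR319 21-nt at both hairpins, and its 308 reads, repeated at each, were counted once. No list held overlapping hairpins on 1 strand, so each hairpin carried 1 sequence per library. In 69 cases over the 4 lists a hairpin also contained, on the same stretch, another sequence listed in that library, and the sequence given for the hairpin had more reads than the other in 67 and equal reads in 2. Reads of the 22-nt sequence in root, and of any further length forms, are therefore not known from the lists, and the named miR319 level in shoot leaves out the 22-nt reads. The pattern was not confined to miR319: of 139 hairpins listed in both tissues, 22 had no sequence in common between root and shoot, among them hairpins of miR166, miR167 and miR528.

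With the 22-nt reads added, miR319 came to 97 reads in CS and 112 in TS, or 7.40 RPM (5.997 to 9.02) and 11.5 RPM (9.44 to 13.8). The 21-nt form made up 16.5% (9.73 to 25.4%, exact Clopper-Pearson interval) of these reads in CS and 34.8% (26.1 to 44.4%) in TS. The odds of 21-nt against 22-nt reads were 2.69 times higher in TS than in CS (1.34 to 5.62, exact conditional interval), a difference larger than counting error. In shoot the 21-nt sequence was listed at the hairpin at 26823285 and the 22-nt sequence at that at 6677562. A change of form at 1 hairpin and a change between the hairpins cannot be told apart from these odds. The 2 miR159 sequences differ at their first base and were listed at different hairpins, so their shares do not describe a split of lengths at 1 locus. In root, miR159 20-nt made up 26.5% (21.6 to 32.0%) of the miR159 reads in CR and 28.5% (23.6 to 33.8%) in TR, with an odds ratio of 1.10 (0.761 to 1.60).

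In each comparison of 2 libraries, a sequence was called higher where its RPM ratio reached 2 and lower where it fell to 0.5 or under, provided that the exact 95% interval of the ratio excluded 1. The same rule was run over all distinct sequences listed in both libraries as background. That background includes sequences with as few as 2 reads, whose intervals are wide and which seldom pass the rule. Every member count compared was 16 reads or more. The shares called and the ranks below are therefore not matched for read depth, and among sequences as deep as the members the shares would differ.

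In root, NaCl treatment called none of the 3 member sequences. miR159 21-nt was at 0.594 times its control level (0.491 to 0.719), miR159 20-nt at 0.655 times (0.479 to 0.899) and miR319 21-nt at 0.653 times (0.552 to 0.772). The 3 ratios lay close together, each with its interval below 1 and none past the 2-fold limit. Of the 46 sequences listed in both root libraries, 10.9% were called higher and 13% lower, and their median log2 ratio was -0.32. Relative to that median the log2 ratios of the members were -0.43, -0.29 and -0.30, and they stood 34th, 30th and 31st of 46 from the highest. The direction depended on the denominator. Other denominators were raw reads, high quality reads after trimming, and the reads kept once other non-coding RNA was removed. With these the ratios of miR319 21-nt (1.04 to 1.09) and miR159 20-nt (1.05 to 1.09) were above 1. That of miR159 21-nt stayed below 1 under all 6 other denominators (0.624 to 0.990). With the denominators just named and with the sum of listed reads, however, the intervals of all 3 sequences included 1. For miR159 21-nt they were 0.818 to 1.20 with raw reads and 0.719 to 1.05 with listed reads.

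In shoot, miR159 21-nt and miR319 21-nt were both called higher after NaCl, 2 of the 3 sequences compared (the third is the unnamed one). Of the 96 sequences listed in both shoot libraries, 22.9% were called higher and 7.29% lower. Many of the 96 had only a few reads in each library, so this share is a low mark for sequences as deep as the members. Of the 32 among these with a miRBase name, members included, 15 were called higher and 4 lower, with a median log2 ratio of 0.96. miR159 21-nt went from 24.8 to 51.8 RPM, a ratio of 2.09 (1.82 to 2.41), and stood 26th of 96. Its ratio stayed above 1 under all 6 other denominators (1.73 to 3.06) but was past 2 under only 2 of them. miR319 21-nt went from 1.22 to 3.99 RPM, a ratio of 3.27 (1.79 to 6.28), stood 15th of 96 and was called under all 6 (2.71 to 4.79). These are 16 against 39 reads, which is why the interval is wide. For miR159a the paper's Northern blots gave a lower signal after NaCl in both root and shoot of Pokkali. In shoot that is opposite in direction to the read ratio of miR159 21-nt. In root the read ratio of miR159 21-nt was also below 1, at 0.594, but was not called, and its interval included 1 under some other denominators. Blots and reads are different measures, and the blot probe was not compared with the listed sequence here.

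The unnamed 22-nt sequence, listed in shoot at the miR319 hairpin at 6677562 and not at that at 26823285, was not called, with a ratio of 1.21 (0.870 to 1.68), and stood 59th of 96. The sum of both miR319 forms had a ratio of 1.55 (1.17 to 2.06) and was not called. Under the other denominators its ratio ran from 1.28 to 2.27 and was called under 1 of 6, the sum of listed reads. The median log2 ratio of all 96 sequences was 0.43, and relative to it miR159 21-nt was at 0.64, miR319 21-nt at 1.29, the 22-nt sequence at -0.15 and the miR319 sum at 0.21.

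**Figure D3:**
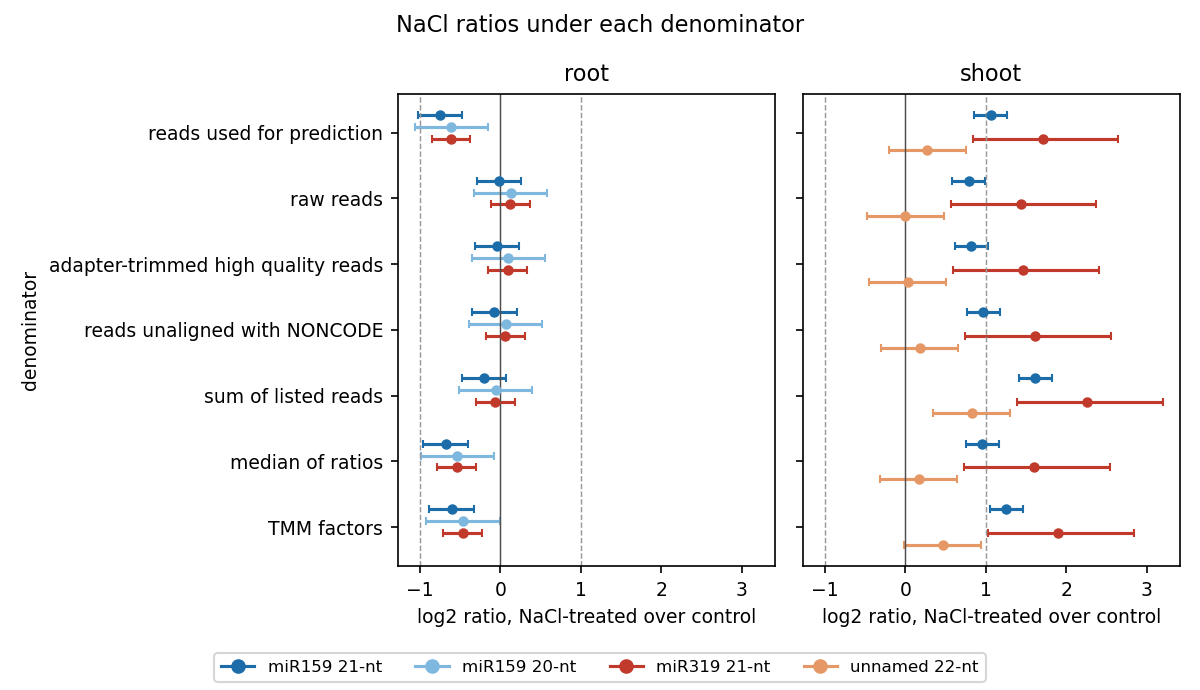
log2 ratio of NaCl-treated over control on the x axis for root (left) and shoot (right), under the denominator named on the y axis, with 95% counting intervals; dashed lines mark 2-fold. In shoot the 2 named 21-nt sequences lie above 0 throughout and the unnamed 22-nt sequence near 0 under several denominators, while in root the values of miR319 21-nt and miR159 20-nt cross 0.

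The NaCl ratios of both 21-nt sequences were higher in shoot than in root. The log2 ratio in shoot minus that in root was 1.82 for miR159 21-nt (1.48 to 2.15) and 2.33 for miR319 21-nt (1.45 to 3.20). For miR319 with the 22-nt reads it was 1.25 (0.79 to 1.71), with the 22-nt reads counted in shoot only, as root did not list them. Among the 29 sequences listed in all 4 libraries the median difference was 0.62, with miR319 21-nt 3rd and miR159 21-nt 6th from the highest. Under the other denominators the difference ran from 0.80 to 1.86 for miR159 21-nt, from 1.32 to 2.37 for miR319 21-nt and from 0.24 to 1.29 for the miR319 sum. The lowest value of the miR319 sum, 0.24, was close to its standard error of 0.23.

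Between tissues without NaCl, miR319 21-nt was called lower in shoot, at 0.0314 times its root level (0.0177 to 0.0519), or 31.9-fold lower (19.3 to 56.6). It was 1 of the 2 member sequences compared, and it stood 49th of 50 sequences, of which 14% were called lower and 22% higher. With the 22-nt reads the ratio was 0.190 (0.149 to 0.241), or 5.26-fold lower, still called and still so under all 6 other denominators. The root side of that ratio holds the 21-nt reads alone, because the 22-nt sequence was not listed in root. miR159 21-nt was at 0.790 times its root level (0.663 to 0.943) and was not called, and its ratio lay above 1 under 3 of the 6 other denominators (1.21 to 1.31).

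With NaCl the families differed in direction between tissues. miR319 21-nt was at 0.157 times its root level in shoot (0.110 to 0.220), 6.36-fold lower, and was called lower, with 17% of 47 sequences called lower. With the 22-nt reads it was at 0.452 times (0.360 to 0.562), 2.21-fold lower, and called. miR159 21-nt was at 2.78 times its root level (2.37 to 3.27) and was called higher, with 31.9% of the 47 sequences called higher. The call held under 5 of the 6 other denominators (1.80 to 2.90). Of the 20 sequences with a miRBase name, members included, 12 were called higher and 5 lower. Their median log2 ratio was 1.79, against 1.48 for miR159 21-nt. Tissue and NaCl comparisons share libraries and are not separate evidence.

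**Figure D4:**
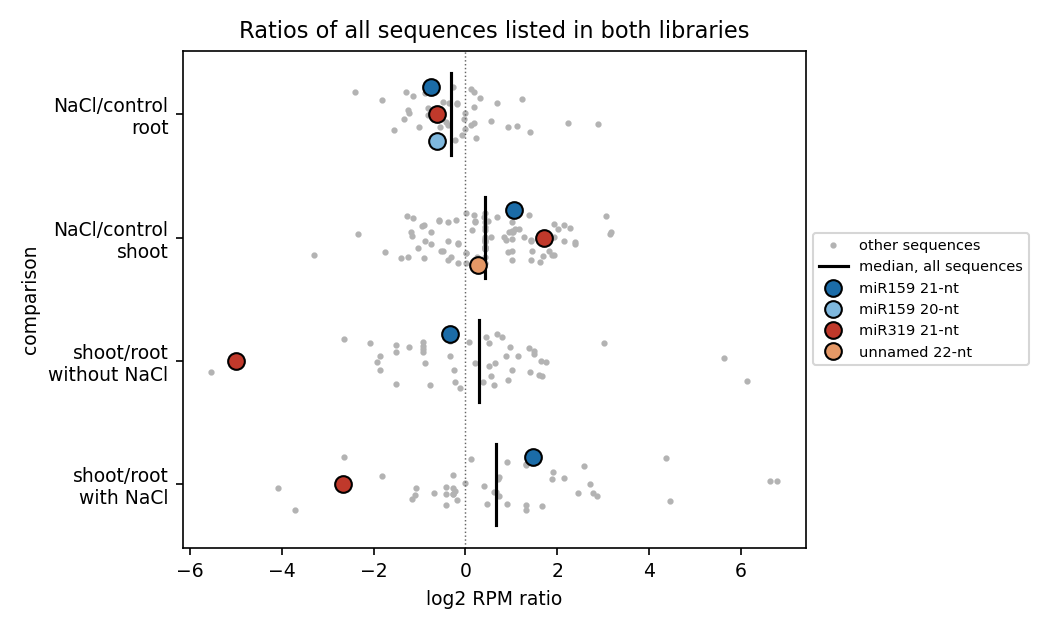
Each grey point is the log2 RPM ratio of 1 sequence listed in both libraries of a comparison, black bars are the medians, and coloured points are the member sequences, set apart vertically only to keep them visible. miR319 21-nt is 49th of 50 and 45th of 47 from the highest in the shoot over root comparisons and 15th of 96 for NaCl in shoot.

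Counting both families in the same library removes the denominator. In root the families were near parity, with 268 miR319 reads to 294 miR159 reads in CR (a ratio of 0.912) and 308 to 316 in TR (0.975), and the odds ratio between TR and CR was 1.07 (0.846 to 1.35). In shoot miR159 was in large excess over named miR319, by 20.3 times in CS and 13.0 times in TS, and with the 22-nt reads added to miR319 by 3.35 and 4.52 times. The change with NaCl in shoot was within counting error and turned with the forms counted: the odds ratio of miR319 to miR159 was 1.56 (0.838 to 3.05) for the 21-nt form and 0.742 (0.540 to 1.02) with the 22-nt reads. Between tissues, miR319 21-nt was set against miR159 21-nt, the sequences listed in all 4 libraries, and the odds ratios of shoot to root were 0.0398 (0.0218 to 0.0682) without NaCl and 0.0567 (0.0382 to 0.0825) with it. With miR159 20-nt counted in root, where alone it was listed, they were 0.0542 (0.0298 to 0.0923) and 0.0793 (0.0537 to 0.114). With the 22-nt reads counted in shoot as well, they were 0.328 (0.244 to 0.437) and 0.227 (0.174 to 0.296). All lay below 1 beyond counting error, but in the latter 2 pairs the forms counted differ between the tissues.

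**Figure D5:**
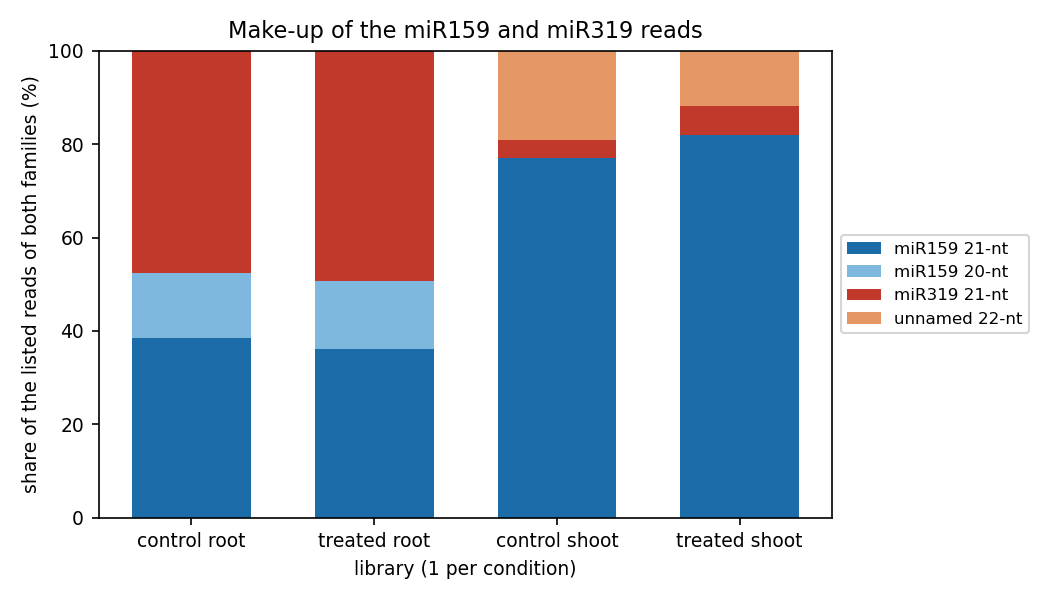
Bars split the listed reads of both families in each library into the 4 sequences, in percent of their sum; sequences that a list does not give have no segment. miR319 21-nt and miR159 reads are near equal in root, while in shoot miR159 21-nt takes most of the reads and the unnamed 22-nt sequence exceeds miR319 21-nt.

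Few miRNA* reads were recorded. The miR159 hairpin at 1215013 had 2 in CR and 1 in CS, the miR159 hairpin at 6693100 had 3 in TR, the miR319 hairpin at 6677562 had 1 in TR and 1 in TS, and the miR319 hairpin at 26823285 had none. All 7 records of a miRNA* sequence left a 3′ overhang of 2 nt on the mature strand when paired as the hairpins are drawn. On the miRNA* strand the 3′ overhang was 2 nt in 3 of the 7 records and 1 or 3 nt in the others. Dicer-like enzymes typically leave a short 3′ overhang on both strands. Pooled over the member loci, miRNA* reads as a share of mature and miRNA* reads were 0.355% (0.0430 to 1.28%) and 0.637% (0.174 to 1.62%) in CR and TR. In CS and TS they were 0.236% (0.00599 to 1.31%) and 0.162% (0.00409 to 0.897%). The 4 intervals overlapped, so no difference between libraries was detectable at this depth. At the other named loci the share was 0.583% and 0.618% in root without and with NaCl, 0.990% in CS and 7.84% (7.53 to 8.15%) in TS. In TS the member interval lay wholly below it. The TS value for the other loci pools 2342 miRNA* reads, against 281 in CS. It weights loci by their reads and was not broken down by locus, so it need not hold for a typical locus.

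At the miR319 hairpin at 6677562 the recorded miRNA* began at the same base, 22 of the hairpin, beside the 21-nt mature sequence in TR and beside the 22-nt sequence in TS. It was 20 nt long in TR and 21 nt long in TS, with 1 read each.

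Other conserved families that also target transcription factor mRNAs were counted beside the members. This list held miR156, miR529, miR535, miR160, miR167, miR164, miR166, miR169, miR171, miR172 and miR396. In root, 1 of its 16 listed sequences was called higher and 2 lower after NaCl, with a median log2 ratio of -0.32, the same as that of all 46 sequences. In shoot 10 of 20 were called higher and 3 lower, with a median of 0.99 against 0.43 for all 96. For shoot over root, 5 of 13 were called higher and 3 lower without NaCl (median log2 ratio 0.90), and 9 of 14 higher and 3 lower with NaCl (2.18). miR319 21-nt, at -5.00 and -2.67, lay below the whole range of this list in both (lowest -2.65 and -2.64), though with NaCl by less than its counting error (-3.19 to -2.19). With the 22-nt reads added, miR319 was at -2.40 and -1.15, inside the range of the list in both.

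Among the 28 other sequences listed in all 4 libraries, the profile closest to that of miR319 21-nt was a 21-nt miR396, at a distance of 1.81 (Euclidean distance of log2 RPM profiles centred on their own means, over 4 libraries). miR396, which targets mRNAs for growth-regulating factors, had 4.79 and 3.96 RPM in root without and with NaCl, and 0.762 and 1.13 RPM in shoot. The next were a 21-nt miR166 (2.30) and an unnamed sequence at chr12:27018566-27018585 (2.49). For miR159 21-nt the closest were an unnamed 22-nt sequence at chr10:4833702-4833723 (0.81), a 20-nt miR156 (1.04) and a 21-nt miR162 (1.15). That unnamed sequence had 8.42, 6.27, 7.24 and 8.29 RPM in CR, TR, CS and TS. With 1 library per condition these distances describe the lists only.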

How the data were processed

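Small RNA of root and shoot, each with and without NaCl and 1 library each, was sequenced single-end by the authors on a HiSeq2000. Per the study's methods, reads were trimmed with cutadapt and processed in the UEA Small-RNA Workbench and the NGS QC Toolkit, other non-coding RNA was removed, and miRBase and the rice genome were searched. The study drew stem-loops with mFold; no tool versions, and no program for the deposited hairpin values, are given in the sources used here.

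Deposited by the authors was 1 entry per hairpin locus with the count of reads of the mature sequence, its RPM (the count per 1000000 reads used) and the log2 of the RPM. The deposited files also give hairpin G+C in percent, folding energy and a fold p-value. The 3 to 5 lines per list without content were dropped.

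Each sequence was counted once per library. Ratios used the deposited RPM, with exact conditional 95% intervals (scipy 1.17.1). In data simulated over the sequences of each comparison the intervals were tested for coverage. The simulated counts held counting error only, as the intervals assume, so variation between libraries was not tested. TMM factors came from edgeR 4.0.16; no model was fitted, since 1 library per condition leaves 0 residual degrees of freedom. Reads without molecular identifiers are not independent molecules, so intervals cover counting error only. Alternatives were 6 other denominators, a fold limit of 1.5, a minimum of 10 reads, and other ways of summing forms. Named were all member sequences and loci, unnamed entries on the same hairpins, and the 3 closest profiles. The members and lists were chosen with earlier results of these data known.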

Additional observations from a re-analysis of the deposited data

Results flagged for a closer look

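For 2 results the response to NaCl differed between tissues by more than counting error. The log2 ratio of NaCl-treated over control was higher in shoot than in root by 1.82 for miR159 21-nt (1.48 to 2.15) and by 2.33 for miR319 21-nt (1.45 to 3.20), each from 1 library per condition. For miR319 with the unnamed 22-nt reads, which were listed in shoot only, the difference was 1.25. The median over the 29 sequences listed in all 4 libraries was 0.62.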

How the results depend on the processing

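Of 114 recomputed values outside the minimum of 10 reads and the miRNA* sums, 87 kept direction and call. Some of the 87 were fixed in advance and are no check. A fold limit of 1.5 keeps every call made at 2. The shoot odds ratio with miR159 21-nt only repeats the main value, since no 20-nt reads were listed there. Divided by raw, trimmed or non-coding-filtered reads in that order, the root NaCl ratio turned to 1.09, 1.07 and 1.05 for miR159 20-nt and to 1.09, 1.07 and 1.04 for miR319 21-nt, that of the miR159 sum to 1.02 with raw reads only, and the shoot to root ratio of miR159 21-nt without NaCl to 1.31, 1.22 and 1.21. For miR159 21-nt in shoot the NaCl ratio lost its call at 1.73, 1.76 and 1.96 with these denominators and at 1.94 with median of ratios. TMM factors gave calls without NaCl to miR159 21-nt (0.495) and the miR159 sum (0.364), median of ratios to the sum (0.487), and TMM ended the call of miR159 21-nt with NaCl (1.80), where the sum of listed reads called the miR159 sum (2.07). A fold limit of 1.5 called the root values of miR159 21-nt (0.594), miR159 20-nt (0.655), their sum (0.610) and miR319 21-nt (0.653), and the miR159 sum between tissues (0.580 without and 1.99 with NaCl). Between tissues the miR159 sum holds 20-nt reads in root only, as the shoot lists do not give that sequence, so its ratios take an unlisted form as absent; miR159 21-nt alone gave 0.790 and 2.78. Adding the 22-nt reads ended the miR319 call in shoot (1.55) and turned the shoot odds ratio of miR319 to miR159 (0.742). These changes follow from the denominators, fold limit and forms used; which denominator is apt was not tested. A minimum of 10 reads could change no member value, since no member count compared was lower. It was not applied to the background, whose shares and ranks it would change. The miRNA* reads summed over loci were identical. No paired analysis was possible because each condition has 1 library, and for the same reason no library could be left out.

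Depth limits the miRNA* shares (8 reads in all) and miR319 21-nt in CS (16 reads). Forms that a list does not give have no known count.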
